A study of Saccharomyces cerevisiae with 12 samples.

Results

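The 10 genes described here are part of the oxidative stress defence of budding yeast (Saccharomyces cerevisiae). They are the regulator YAP1, the thioredoxin pair TRX2 and TRR1, and the peroxiredoxins AHP1 and TSA2. The others are GSH1 of glutathione synthesis, GPX2 of the glutathione peroxidase family, the superoxide dismutases SOD1 and SOD2, and the cytochrome c peroxidase CCP1. They were taken by name and systematic identifier, with no threshold on their values, and all 10 were found among the 7126 features of the deposited table. Their transcripts were measured by RNA sequencing of 12 samples, which fall into 4 groups of 3. Sac3 is the protein around which the TREX-2 complex of the nuclear pore is built, and TREX-2 joins transcription to mRNA export. Cdk8, whose gene is also named SSN3, is a kinase that regulates the Mediator complex. The sac3∆ group lacked SAC3 and carried the empty plasmid pRS315. The R288D group lacked chromosomal SAC3 and carried pRS315 with SAC3 bearing the R288D substitution. The cdk8∆ group lacked CDK8, carried the empty plasmid and kept its own SAC3. The wild type group was itself a sac3∆ strain, rescued with 13MYC-tagged SAC3 on pRS315, and the labels name no tag for the R288D plasmid, so SAC3 came from a plasmid in the wild type and R288D groups and from the chromosome in cdk8∆. All cells grew untreated in synthetic medium without leucine, so no oxidant was added and every level below is one of unstressed growth.

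Yeast destroys peroxides with peroxiredoxins and glutathione peroxidases, which are returned to their reduced form by thioredoxin or glutathione. Thioredoxin is in turn recharged by thioredoxin reductase with NADPH. Superoxide is first turned into peroxide by the superoxide dismutases, one in the cytosol and one in the mitochondrial matrix. The transcription factor Yap1 accumulates in the nucleus when its cysteines are oxidised and then activates thioredoxin, peroxiredoxin and glutathione genes, many of them together with Skn7. Levels are given in RPKM, reads per kilobase of exon scaled to library size, as deposited. Depth recovered from the features matched to the reference annotation was 16.18 to 22.44 M reads per sample. Each value of the 10 genes rested on 560 to 42659 reads, so counting error alone was 0.484 to 4.23% of a value. SAC3 lay at 0.0458 ± 0.0416 RPKM in sac3∆, 63.7 ± 1.18 in R288D and 33.5 ± 0.347 in cdk8∆, against 51.3 ± 2.32 in wild type, and SSN3 lay at 0.205 ± 0.0816 RPKM with CDK8 deleted, against 49.7 ± 0.0660 RPKM in wild type (SD, n = 3 each), so both deleted genes followed the labels. The cdk8∆ group thus also differed from wild type and R288D in the source and level of SAC3. In those comparisons this cannot be told apart from loss of CDK8.

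The stretches upstream of the 10 genes are shown because Yap1, whose own gene moved in every mutant, is known to act through short DNA elements before its target genes. A window of 250 bases before to 50 bases after each coding start was read from the R64 reference genome and searched on both strands for the Yap1 elements and for AGGGG, the element of the general stress factors Msn2 and Msn4. At least 1 Yap1 element was present in 6 of the 10 windows, against 24.7% of 6001 windows of protein-coding genes, and AGGGG in 6 of the 10, against 21.6%. The Yap1 elements searched were TTACTAA, held by 7.45% of all windows, then TGACTAA, held by 3.62% of them, then TTACAAA, held by 9.1% of them, and TGACAAA, held by 6.92% of them. No match overlapped a match of another motif, and none lay inside an annotated gene. In the lines that follow, capitals mark the Yap1 elements, each written 5′ to 3′ on the strand of its gene. TRX2 held 2 of them, 217 and 181 bases before the coding start, and TRR1 held one 192 bases before it.
TRX2, chrVII:913382-913464, minus strand: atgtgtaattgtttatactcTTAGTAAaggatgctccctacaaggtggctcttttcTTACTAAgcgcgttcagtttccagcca
TRR1, chrIV:1183087-1183133, plus strand: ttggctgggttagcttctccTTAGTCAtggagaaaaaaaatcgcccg
SOD1, chrX:623137-623183, minus strand: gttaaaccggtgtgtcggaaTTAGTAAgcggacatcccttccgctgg
TSA2, chrIV:1365756-1365802, minus strand: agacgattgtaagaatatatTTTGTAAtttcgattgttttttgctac
GSH1, chrX:236560-236606, minus strand: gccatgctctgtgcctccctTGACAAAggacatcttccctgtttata
GPX2, chrII:707278-707307, plus strand: cgaTGACAAAgagtttaaaaccacaatatc

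None of these Yap1 letters stood in the windows of AHP1, YAP1, SOD2 and CCP1, which says only that these letters were not in these windows. All 4 held AGGGG or its complement, marked by capitals below, and AHP1 held it at 2 places, 215 and 165 bases before the coding start. GPX2 and SOD1 held AGGGG as well, 166 and 197 bases before the start. A match is a description of the sequence and not evidence of binding.
AHP1, chrXII:368546-368640, plus strand: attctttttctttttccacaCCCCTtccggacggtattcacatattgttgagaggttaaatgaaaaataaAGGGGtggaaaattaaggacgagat
YAP1, chrXIII:253725-253769, plus strand: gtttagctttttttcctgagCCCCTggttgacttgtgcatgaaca
SOD2, chrVIII:123707-123751, minus strand: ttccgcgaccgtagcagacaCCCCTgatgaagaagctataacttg
CCP1, chrXI:567322-567366, minus strand: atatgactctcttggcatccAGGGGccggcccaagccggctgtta

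In cells without SAC3, and in cells with the R288D variant, TRX2, TRR1, AHP1, TSA2, GSH1, GPX2 and SOD1 fell while YAP1 and CCP1 rose. In cells without CDK8, TRX2, TRR1, AHP1, GPX2 and SOD1 fell and CCP1 rose as well, while YAP1 fell, GSH1 rose, SOD2 fell and TSA2 did not pass. These directions are those of the values as deposited, and those that turn under another scaling are named with each gene. A log2 change here is the difference of group means of log2(RPKM + 1), given with its limma standard error, and a gene is said to have risen or fallen where the Benjamini-Hochberg adjusted p over the 6124 features tested was under 0.05. Of the 10 genes, 9 passed in sac3∆ against wild type, 2 higher and 7 lower, where 51.5% of all features passed. In R288D against wild type 9 passed, 2 higher and 7 lower, where 50.8% of all features passed. In cdk8∆ against wild type 9 passed as well, 2 higher and 7 lower, where 62.1% of all features passed. The median change of the 10 was -0.41 in sac3∆, -0.25 in R288D and -0.37 in cdk8∆, beside 0.04, 0.02 and 0.01 over all features. These 3 comparisons share their wild type samples. In sac3∆ all 10 genes had 3 samples beyond all wild type samples, as did 59.3% of features, in R288D 9 did, as did 54.8%, and in cdk8∆ 9 did, as did 72.9%. Fewer cells with a transcript and less of it per cell cannot be told apart in these bulk samples. AHP1, SOD1, TRX2, TRR1 and SOD2 are among the 613 features with the highest mean levels, and those 613 features had a median change of -0.28 in sac3∆, -0.31 in R288D and -0.57 in cdk8∆.

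**Figure D1:**
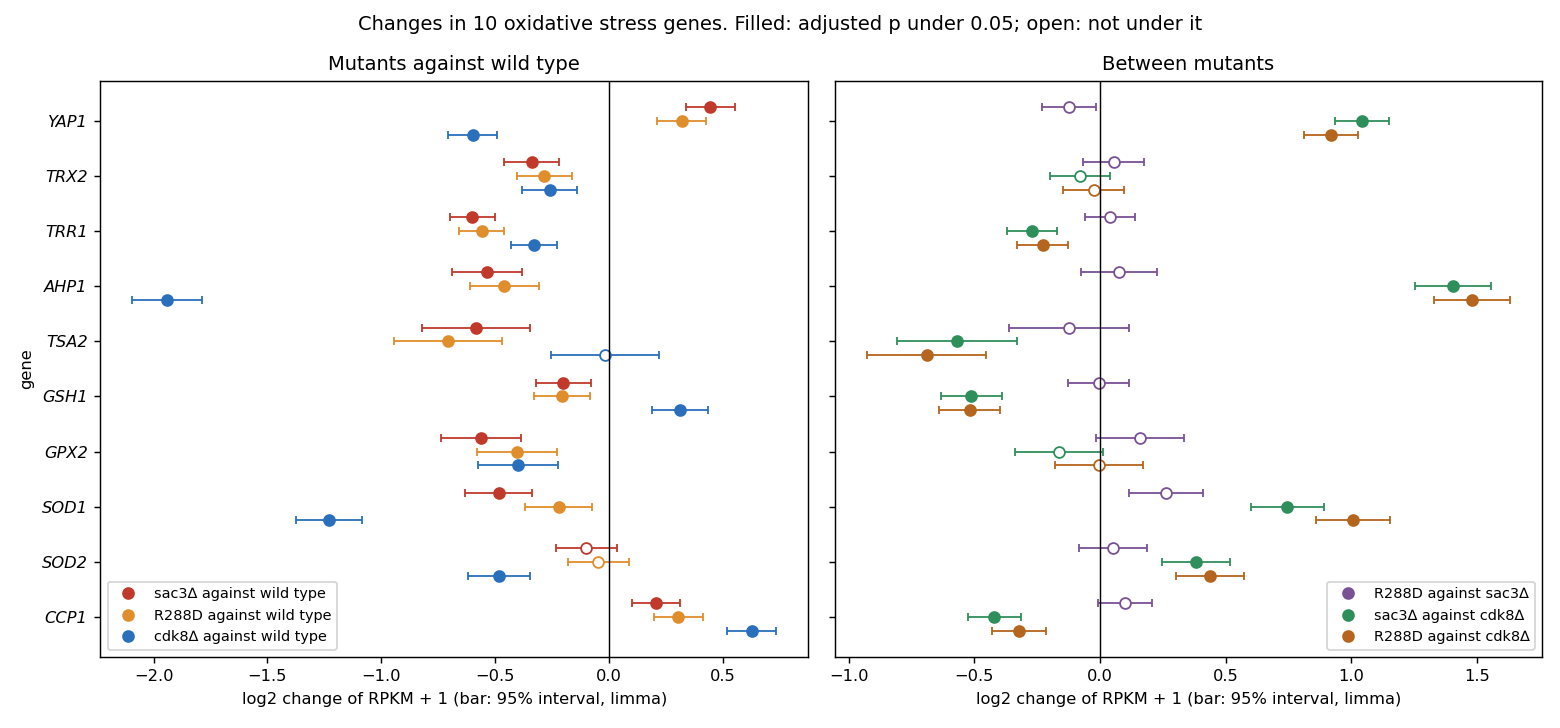
Log2 change of RPKM + 1 (horizontal axis) of each of the 10 genes (vertical axis) for the mutants against wild type (left) and between mutants (right), with 95% limma intervals; filled points passed at an adjusted p of 0.05. AHP1 lies farthest left, at -1.94 in cdk8∆, while YAP1 lies right of 0 in sac3∆ and R288D and left of 0 in cdk8∆. Values are as deposited. Against wild type, TRX2 in all 3 mutants, SOD1 and SOD2 in sac3∆ and R288D, and TRR1 and TSA2 in cdk8∆ change sign under quantile normalization. Those SOD2 and TSA2 changes passed neither as deposited nor after quantile normalization.

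YAP1 (YML007W, chromosome XIII, 253848 to 255800, plus strand, 1 exon, in the R64 reference that all positions here refer to), the gene of the transcription factor itself, measured 170.1, 158 and 164 RPKM in sac3∆, 144, 159 and 147 RPKM in R288D and 79.8, 81.8 and 75.4 RPKM in cdk8∆, against 119.98, 120.7 and 119.3 RPKM in wild type. Every sac3∆ and R288D sample lay above every wild type sample, and every cdk8∆ sample lay below them. YAP1 rose by 0.44 ± 0.05 on the log2 scale in sac3∆ (limma adjusted p = 1.68e-05) and by 0.32 ± 0.05 in R288D (limma adjusted p = 2.22e-04). It fell by 0.60 ± 0.05 in cdk8∆ (limma adjusted p = 8.99e-07). Between the deletions the difference was 1.04 ± 0.05 for sac3∆ against cdk8∆, so sac3∆ cells held about 2.06 times the YAP1 signal of cdk8∆ cells (limma adjusted p = 6.57e-09). All 3 changes from wild type passed under each of the other 22 settings tried, at 0.35 to 0.61 for sac3∆, at 0.25 to 0.47 for R288D and at -0.65 to -0.22 for cdk8∆.

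**Figure D2:**
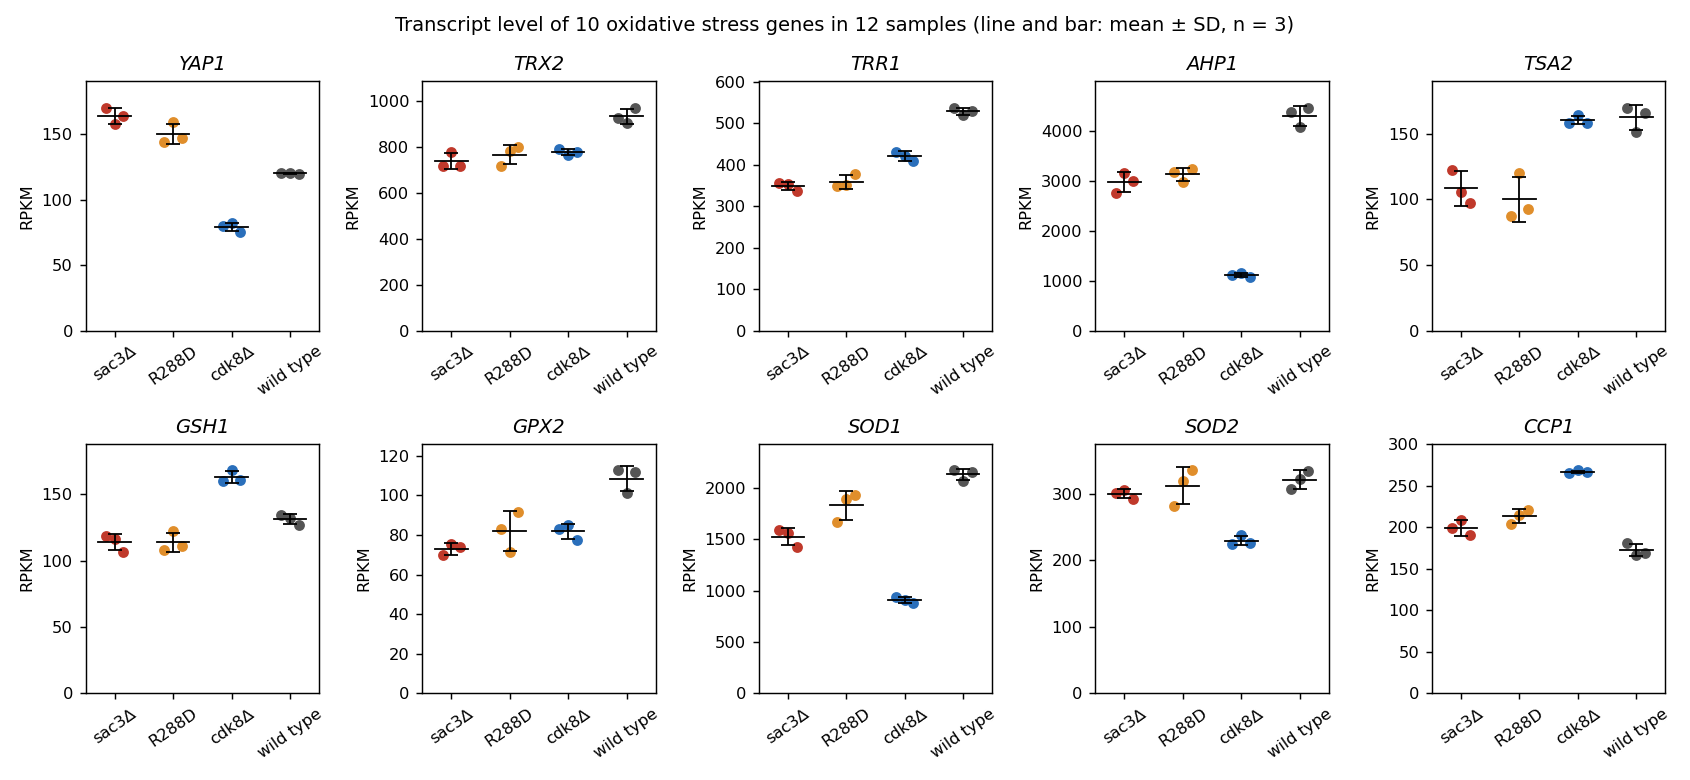
RPKM (vertical axes, from 0) of each of the 10 genes in the 12 samples; points are samples, and the line and bar are the mean and SD of 3 samples in sac3∆, R288D, cdk8∆ and wild type. AHP1 sits between 1075 and 1163 RPKM in cdk8∆ and between 4072 and 4461 RPKM in wild type, whereas CCP1 and GSH1 are highest in cdk8∆.

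TRX2 (YGR209C, chromosome VII, 912913 to 913227, minus strand, 1 exon), a cytosolic thioredoxin, measured 719, 780.3 and 718 RPKM in sac3∆, 719.6, 782 and 803 RPKM in R288D and 794, 768 and 780.5 RPKM in cdk8∆, against 927, 908 and 972 RPKM in wild type. The 3 mutants overlapped one another and all lay below wild type. The log2 changes were -0.34 ± 0.06 in sac3∆, -0.29 ± 0.06 in R288D and -0.26 ± 0.06 in cdk8∆ (limma adjusted p = 3.11e-04, 0.00114 and 0.00149). After quantile normalization, however, all of them stood above 0, at 0.06, 0.11 and 0.45. Of these only the cdk8∆ change passed, as a rise (limma adjusted p = 1.49e-04). With library scaling removed sac3∆ stood at -0.18 and still passed. R288D stood there at -0.13 and cdk8∆ at 0.12, and neither passed. TRX2 had the smallest spread between groups of the 10 genes.

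TRR1 (YDR353W, chromosome IV, 1183299 to 1184258, plus strand, 1 exon), the cytosolic thioredoxin reductase that recharges Trx2, measured 356, 353 and 337 RPKM in sac3∆, 348, 350.2 and 378 RPKM in R288D and 432, 422 and 408 RPKM in cdk8∆, against 537, 519.7 and 529.7 RPKM in wild type. The groups fell into 3 levels: wild type was highest, cdk8∆ lay between, and sac3∆ and R288D overlapped below. TRR1 fell by 0.60 ± 0.05 in sac3∆ and by 0.56 ± 0.05 in R288D (limma adjusted p = 1.22e-06 and 2.28e-06), and these passed under every setting tried. In cdk8∆ the change was -0.33 ± 0.05 (limma adjusted p = 6.14e-05) as deposited, 0.20 after quantile normalization, where it passed as a rise, and 0.05 with the authors' library scaling removed, where it did not pass. The difference between sac3∆ and cdk8∆, -0.27 ± 0.05, passed under every setting tried (limma adjusted p = 2.80e-04).

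AHP1 (YLR109W, chromosome XII, 368781 to 369311, plus strand, 1 exon), a peroxiredoxin that reduces alkyl hydroperoxides with electrons from thioredoxin, was the most abundant of the 10 and had the widest spread between groups, which came from its level in cdk8∆. It measured 2753, 3154 and 2997 RPKM in sac3∆, 3175, 2975 and 3229 RPKM in R288D and 1119, 1163 and 1075 RPKM in cdk8∆, against 4368, 4072 and 4461 RPKM in wild type. The cdk8∆ samples lay below all others, sac3∆ and R288D overlapped, and wild type lay above. AHP1 fell by 1.94 ± 0.07 in cdk8∆ (limma adjusted p = 1.19e-09), to 0.261 times the wild type signal, and the fall was 1.42 to 2.00 over the settings tried. In sac3∆ AHP1 fell by 0.54 ± 0.07 (limma adjusted p = 5.56e-05), and in R288D by 0.46 ± 0.07 (limma adjusted p = 1.95e-04), where it stood at -0.15 and no longer passed after quantile normalization. AHP1 in sac3∆ was 1.41 ± 0.07 above that in cdk8∆ on the log2 scale, and in R288D 1.48 ± 0.07 above it (limma adjusted p = 9.73e-09 and 6.41e-09).

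TSA2 (YDR453C, chromosome IV, 1365072 to 1365662, minus strand, 1 exon), a cytosolic peroxiredoxin and the scarcer copy of TSA1, measured 123, 106 and 97.0 RPKM in sac3∆, 87.6, 119.8 and 92.6 RPKM in R288D and 159, 164 and 159 RPKM in cdk8∆, against 169.9, 152 and 166 RPKM in wild type. Here sac3∆ and R288D overlapped and lay below cdk8∆ and wild type, which overlapped each other. TSA2 fell by 0.59 ± 0.11 in sac3∆ and by 0.71 ± 0.11 in R288D (limma adjusted p = 8.09e-04 and 2.22e-04). Its change in cdk8∆ was -0.02 with a 95% interval of -0.26 to 0.22, and it stood at 0.37 and passed when the library scaling was removed. The differences of -0.57 ± 0.11 for sac3∆ and -0.69 ± 0.11 for R288D from cdk8∆ passed (limma adjusted p = 6.69e-04 and 1.59e-04). TSA2 and TSA1 share 78.5% of their coding bases with no identical run over 14 bases, and how reads between such copies were assigned is not given in the sources used here.

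GSH1 (YJL101C, chromosome X, 234320 to 236356, minus strand, 1 exon), which encodes the enzyme of the rate-limiting step of glutathione synthesis, measured 119, 117 and 107 RPKM in sac3∆, 108, 122 and 111 RPKM in R288D and 160.3, 168 and 161 RPKM in cdk8∆, against 134, 132 and 127 RPKM in wild type. The cdk8∆ samples were the highest, wild type lay between, and sac3∆ and R288D overlapped below. GSH1 rose by 0.31 ± 0.06 in cdk8∆ (limma adjusted p = 4.25e-04), and this passed under every setting tried. The changes of -0.20 ± 0.06 in sac3∆ and of -0.21 ± 0.06 with R288D (limma adjusted p = 0.00975 and 0.00882) no longer passed after quantile normalization or with library scaling removed. The difference between sac3∆ and cdk8∆, -0.51 ± 0.06, passed under every setting tried (limma adjusted p = 7.47e-06).

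GPX2 (YBR244W, chromosome II, 707528 to 708016, plus strand, 1 exon), a peroxidase of the glutathione peroxidase family, measured 69.7, 75.3 and 74.0 RPKM in sac3∆, 83.0, 71.4 and 91.4 RPKM in R288D and 83.1, 84.8 and 77.5 RPKM in cdk8∆, against 112.5, 101 and 111.5 RPKM in wild type. All mutant samples lay below all wild type samples, and R288D replicate 2 lay within the range of sac3∆. GPX2 fell by 0.56 ± 0.08 in sac3∆ and by 0.41 ± 0.08 in R288D (limma adjusted p = 1.14e-04 and 0.00132), both under every setting tried. Its change of -0.40 ± 0.08 in cdk8∆ (limma adjusted p = 9.74e-04) stood at -0.02 and did not pass with the library scaling removed.

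SOD1 (YJR104C, chromosome X, 622550 to 623014, minus strand, 1 exon), the cytosolic copper and zinc superoxide dismutase, measured 1594, 1558 and 1429 RPKM in sac3∆, 1672, 1892 and 1935 RPKM in R288D and 942, 905 and 881 RPKM in cdk8∆, against 2169.8, 2071 and 2159.8 RPKM in wild type. No group overlapped another, in the order cdk8∆, sac3∆, R288D and wild type from low to high. SOD1 fell by 1.23 ± 0.07 in cdk8∆ (limma adjusted p = 2.69e-08), to 0.426 times the wild type signal as deposited. This fall passed under every setting tried, but its size ran from -1.29 to -0.48, the smallest after quantile normalization. The change in sac3∆ was -0.48 ± 0.07 (limma adjusted p = 9.29e-05) as deposited and 0.01 after quantile normalization. In R288D it was -0.22 ± 0.07 (limma adjusted p = 0.0161), but it stood at 0.24 and passed as a rise after quantile normalization, and it no longer passed without R288D replicate 1 (-0.16), with only R288D and wild type fitted, or with library scaling removed (-0.07).

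SOD2 (YHR008C, chromosome VIII, 122889 to 123590, minus strand, 1 exon), the manganese superoxide dismutase of the mitochondrial matrix, measured 302, 306 and 292 RPKM in sac3∆, 281, 319.8 and 335 RPKM in R288D and 225, 238 and 227 RPKM in cdk8∆, against 308, 322 and 335 RPKM in wild type. The cdk8∆ samples lay below all the others, R288D overlapped wild type, and sac3∆ lay just under it. The change in cdk8∆ was -0.48 ± 0.06 (limma adjusted p = 3.25e-05), but it stood at -0.14 after quantile normalization and -0.10 with library scaling removed and then did not pass. In sac3∆ it was -0.10 with a 95% interval of -0.23 to 0.04, and in R288D -0.05 with an interval of -0.18 to 0.09, and neither passed as deposited. With medians set equal the sac3∆ change was -0.19 and passed (limma adjusted p = 0.0246). After quantile normalization and with library scaling removed the sac3∆ change stood above 0, at 0.08 and 0.06, and did not pass. The R288D change stood at 0.12 and 0.10 under those scalings and at -0.12 with medians set equal, and passed under none of them.

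CCP1 (YKR066C, chromosome XI, 566113 to 567198, minus strand, 1 exon), a haem peroxidase of the mitochondrial intermembrane space that uses cytochrome c, measured 199, 209 and 190.4 RPKM in sac3∆, 204, 215 and 221 RPKM in R288D and 266, 268 and 266 RPKM in cdk8∆, against 181, 167 and 169.6 RPKM in wild type. Every mutant sample lay above every wild type sample, and cdk8∆ lay above the other mutants. CCP1 rose by 0.63 ± 0.05 in cdk8∆ and by 0.31 ± 0.05 in R288D (limma adjusted p = 5.40e-07 and 2.88e-04), both under every setting tried. It rose by 0.21 ± 0.05 in sac3∆ (limma adjusted p = 0.00386), where it stood at 0.12 and did not pass with medians set equal.

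The comparison of R288D with sac3∆ asks how a single altered residue differs from loss of the whole protein. By limma 0 of the 10 genes passed, where 1.37% of all features passed, 1.05% higher and 0.327% lower, and 2 of the 10, SOD1 and YAP1, had an unadjusted p under 0.05. Samples did not overlap in 1 of the 10, as in 12% of features. That gene was SOD1, whose difference was 0.26 with a 95% interval of 0.12 to 0.41, R288D being higher in every sample, and it passed (0.33) when R288D replicate 1 was left out. The YAP1 difference was -0.13 with an interval of -0.23 to -0.02. GPX2 differed by 0.16 with an interval of -0.02 to 0.33, and it passed (0.25) without R288D replicate 2, the lowest of its group. For the remaining 7 genes the differences lay between -0.12 and 0.10, and over all 10 genes the intervals ran from -0.36 to 0.41.

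Set against cdk8∆, sac3∆ differed in 8 of the 10 genes, 4 higher and 4 lower, where 64.1% of all features passed, 32.9% higher and 31.2% lower. In 9 of the 10 genes the samples did not overlap, as in 72.4% of features. R288D differed from cdk8∆ in 8 of the 10 as well, 4 higher and 4 lower, where 63.7% passed, 32.3% higher and 31.4% lower, and samples did not overlap in 8 of the 10, as in 69.2% of features. The genes that were higher in both were YAP1, AHP1, SOD1 and SOD2, and those that were lower in both were TRR1, TSA2, GSH1 and CCP1; these comparisons share the cdk8∆ samples. SOD1 in R288D was 1.01 ± 0.07 above that in cdk8∆ (limma adjusted p = 1.19e-07), and SOD2 0.44 ± 0.06 above it (limma adjusted p = 6.73e-05). TRX2 differed by -0.08 for sac3∆ and -0.03 for R288D, with intervals of -0.20 to 0.04 and -0.15 to 0.10, and GPX2 by -0.16 and 0.00, with intervals of -0.34 to 0.01 and -0.18 to 0.17. These 4 differences did not pass as deposited, and all of them passed with the library scaling removed. After quantile normalization TRX2 passed at -0.40 for sac3∆ and -0.34 for R288D. GPX2 passed there for sac3∆ at -0.23 but not for R288D.

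How far a change against wild type could be read depended on how samples were scaled. The authors' library sizes were 0.969 to 0.999 times the recovered reads for sac3∆, 0.967 to 0.991 times for R288D and 1.14 to 1.18 times for cdk8∆, against 0.864 to 0.892 times for wild type. Removing that scaling moved the median of all features by 0.15 in sac3∆, 0.14 in R288D and 0.37 in cdk8∆, and shares of features called higher became 76.9%, 75.8% and 85.7%, against 53.3%, 51.8% and 50.7% as deposited. With medians set equal the shares moved the other way, to 37.8%, 38.8% and 42.9%. Of the 9 genes called in each comparison with wild type, 5 passed in the same direction under every setting in sac3∆, namely YAP1, TRR1, AHP1, TSA2 and GPX2. In R288D they were YAP1, TRR1, TSA2, GPX2 and CCP1, and in cdk8∆ they were YAP1, AHP1, SOD1, GSH1 and CCP1. Of the 8 genes called between sac3∆ and cdk8∆ 7 held throughout, and of the 8 between R288D and cdk8∆ all 8 did. The call lost between sac3∆ and cdk8∆ was SOD2, which stood at 0.16 with library scaling removed.

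**Figure D3:**
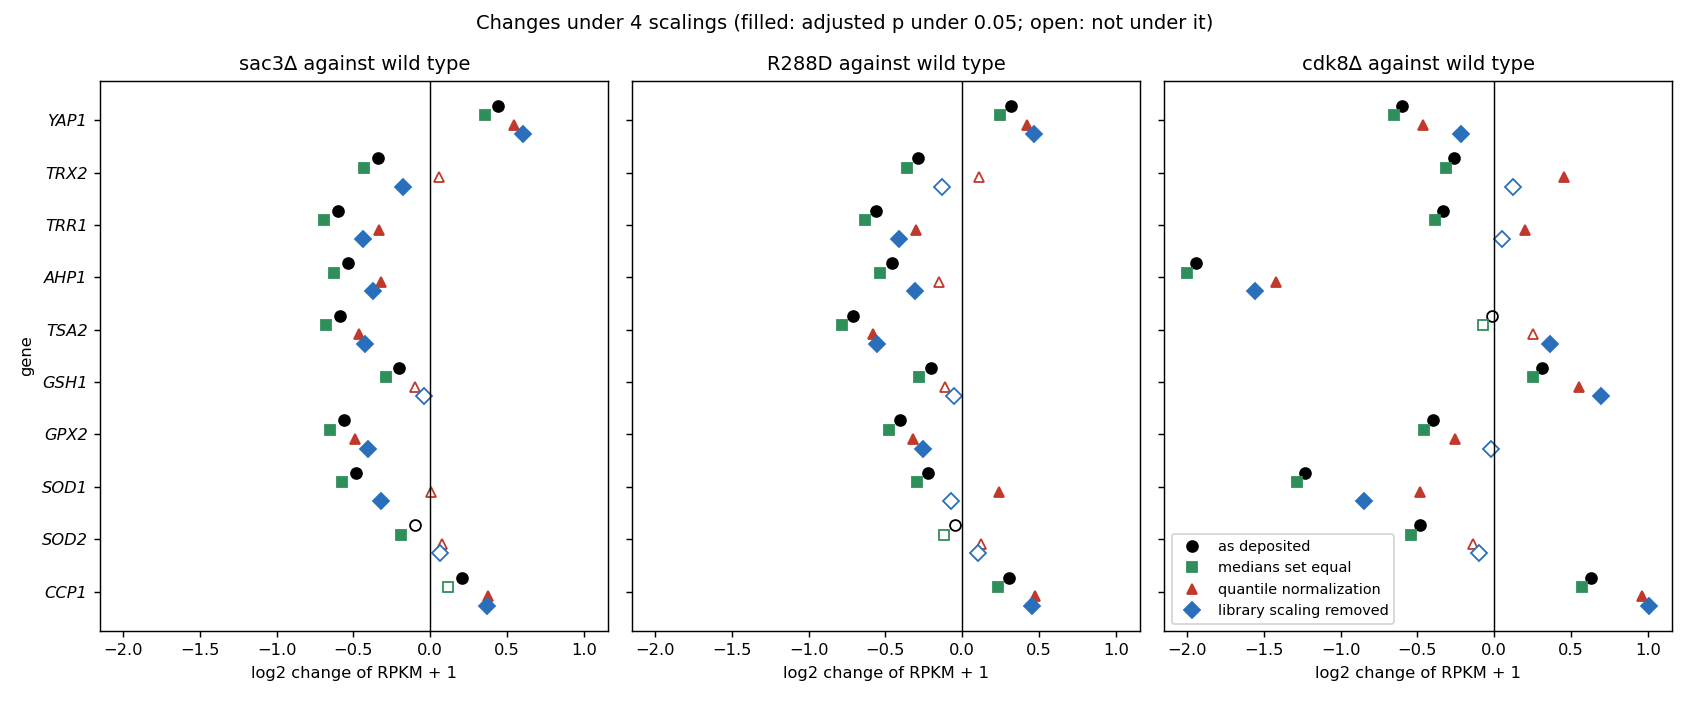
Log2 change of RPKM + 1 (horizontal axis) of the 10 genes (vertical axis) in each mutant against wild type under 4 scalings; filled symbols passed at an adjusted p of 0.05. AHP1 and SOD1 in cdk8∆ stay left of 0 under all of them, while TRX2 in cdk8∆ is at -0.26 as deposited and at 0.45 after quantile normalization.

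Ratios taken between genes of one sample do not change when a sample is scaled by a single factor, though quantile normalization can change them, and some pairs were chosen after their values were seen. With 3 samples against 3, an exact permutation test cannot go below a two-sided p of 0.10, so these ratios are given without a test. SOD1 was 4.89 to 5.28 times as high as SOD2 in sac3∆, 5.78 to 5.95 times with R288D and 3.81 to 4.19 times in cdk8∆, against 6.43 to 7.05 times in wild type. Those 4 ranges did not overlap, and as deposited the ratio was lowest in cdk8∆ and highest in wild type. After quantile normalization that order did not hold for R288D, where SOD1 stood at 0.24 and SOD2 at 0.12 on the log2 scale against wild type. SOD1 stood at 6.59 to 7.28 times the level of CCS1, its copper chaperone, in cdk8∆, against 15.8 to 16.5 times in wild type. The same ratio was 13.4 to 15.6 in sac3∆, below wild type, and 15.1 to 19.5 for R288D, which overlapped wild type. AHP1 was 3.83 to 4.17 times TRX2 in sac3∆, 3.81 to 4.41 times with R288D and 1.38 to 1.51 times in cdk8∆, against 4.49 to 4.71 times in wild type, with all mutant samples below. It was 0.641 to 0.693 times the level of TSA1, the main cytosolic peroxiredoxin, in cdk8∆ and 2.11 to 2.34 times in wild type. AHP1 was thus the more abundant transcript of that pair in wild type and TSA1 in cdk8∆. In sac3∆ AHP1 stood at 2.22 to 2.44 times TSA1, and in R288D at 2.06 to 2.37 times, ranges that overlapped wild type.

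**Figure D4:**
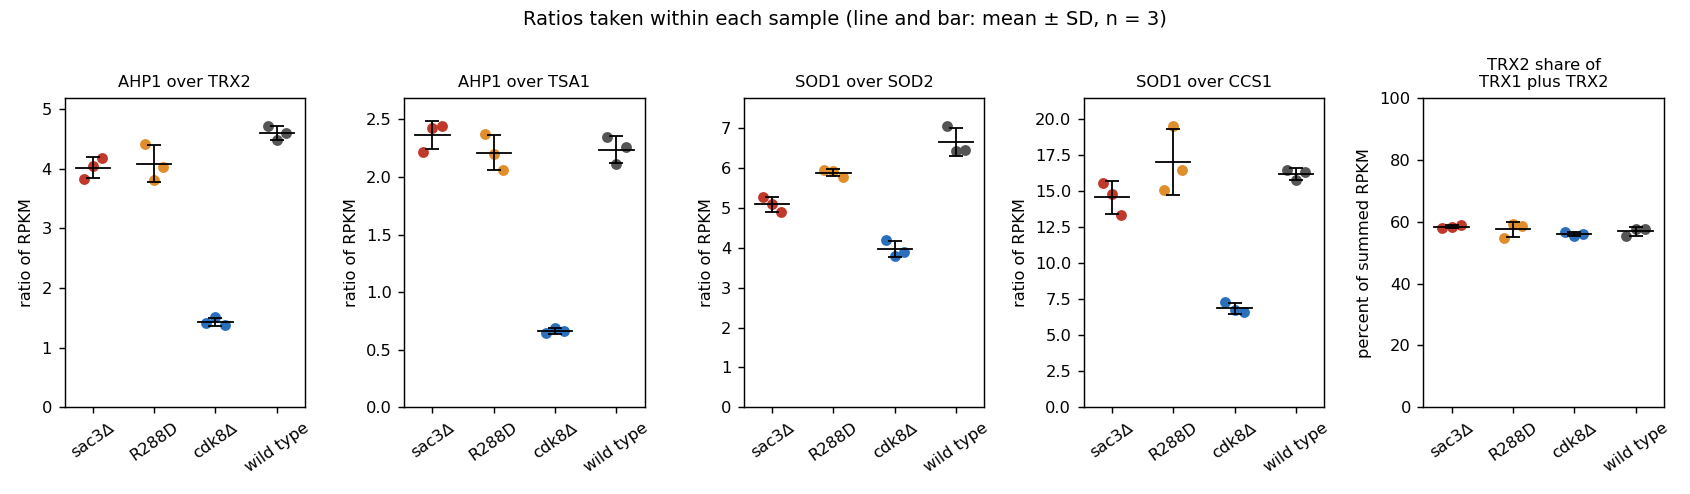
Ratios of RPKM within each sample, and TRX2 as a percentage of TRX1 plus TRX2 (vertical axes, from 0); points are samples, and the line and bar are the mean and SD of 3 samples in sac3∆, R288D, cdk8∆ and wild type. The AHP1 over TRX2 ratio is 1.38 to 1.51 in cdk8∆ and 4.49 to 4.71 in wild type, while the TRX2 share overlaps between cdk8∆ and wild type.

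TRX2 made up 57.9 to 58.8% of the summed RPKM of TRX1 and TRX2 in sac3∆, 54.7 to 59.3% with R288D and 55.4 to 56.7% in cdk8∆, against 55.3 to 57.7% in wild type. TSA2 made up 7.33 to 9.00% of TSA1 plus TSA2 in sac3∆, 5.58 to 8.15% with R288D and 8.33 to 8.93% in cdk8∆, against 7.30 to 8.36% in wild type. TRR1 made up 88.4 to 89.3% of TRR1 plus TRR2, the mitochondrial reductase, in sac3∆, 88.5 to 90.2% with R288D and 87.8 to 88.8% in cdk8∆, against 91.4 to 92.3% in wild type, with all mutant samples below wild type. GPX2 made up 13.6 to 16.0% of its family of GPX1, GPX2 and HYR1 in sac3∆, 13.1 to 17.9% with R288D and 14.5 to 15.2% in cdk8∆, against 18.2 to 19.6% in wild type, again with all mutant samples below.

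A list of 36 other genes of peroxide, glutathione, methionine sulfoxide and NADPH metabolism and of their regulators was read from the same fit, and all 36 passed the filter. In sac3∆ 6 of 36 rose, 16 fell and 14 did not pass, with a median of -0.13. In R288D 7 rose, 18 fell and 11 did not pass, with a median of -0.13. In cdk8∆ 12 rose, 10 fell and 14 did not pass, with a median of -0.01. Among all features 27.4% rose and 24.1% fell in sac3∆, 26.3% and 24.4% in R288D and 31.5% and 30.6% in cdk8∆.

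The genes nearest to the 10 in function were followed singly. TSA1 changed by -0.61 ± 0.07 in sac3∆, -0.44 ± 0.07 in R288D and -0.19 ± 0.07 in cdk8∆ (limma adjusted p = 1.44e-05, 1.92e-04 and 0.0236), and in R288D and cdk8∆ it stood above 0 after quantile normalization. The cdk8∆ call on TSA1 was also lost on leaving out cdk8∆ replicate 2 or 3 (-0.19 and -0.17) or wild type replicate 2 or 3 (-0.19 and -0.17). TRX1, the other cytosolic thioredoxin, changed by -0.43 ± 0.06 and -0.32 ± 0.06 in sac3∆ and R288D (limma adjusted p = 8.14e-05 and 6.98e-04), and by -0.21 ± 0.06 in cdk8∆ (limma adjusted p = 0.00704), where it stood at 0.40 after quantile normalization. TRX3, the mitochondrial thioredoxin, stood at 0.03, -0.03 and 0.00 in sac3∆, R288D and cdk8∆ and passed in none as deposited. TRR2 rose by 0.26 ± 0.07 in cdk8∆ (limma adjusted p = 0.00498) while TRR1, its cytosolic counterpart, stood at -0.33 there.

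GSH2, of the closing step of glutathione synthesis, fell by 0.36 ± 0.04 in both sac3∆ and R288D (limma adjusted p = 1.15e-05 and 1.26e-05), and GLR1, glutathione reductase, fell by 0.50 ± 0.05 and 0.48 ± 0.05 (limma adjusted p = 4.53e-06 and 7.47e-06). In cdk8∆ GLR1 stood at -0.04 and did not pass, and GSH2 stood at -0.10 and passed (limma adjusted p = 0.0319), though it was above 0 after quantile normalization and with library scaling removed. That call was lost on leaving out cdk8∆ replicate 2 (-0.09) or 3 (-0.10) or wild type replicate 1 (-0.10) or 3 (-0.10). GPX1 rose by 0.36 ± 0.10 in cdk8∆ (limma adjusted p = 0.00901). HYR1, the peroxidase that passes the peroxide signal to Yap1, changed by -0.26 ± 0.07 in sac3∆ (limma adjusted p = 0.0124) and by -0.23 ± 0.07 with R288D (limma adjusted p = 0.0232), neither of which passed after quantile normalization. Without wild type replicate 1 neither passed (-0.19 and -0.16), nor did sac3∆ without sac3∆ replicate 3 (-0.19) or R288D without R288D replicate 1 (-0.18) or 3 (-0.23).

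SKN7, the partner of Yap1, rose by 0.56 ± 0.08 in sac3∆ (limma adjusted p = 1.10e-04). In R288D cells it rose by 0.64 ± 0.08 (limma adjusted p = 4.16e-05), while cdk8∆ cells gave 0.03, which did not pass. YBP1, which binds Yap1, stood at 0.06, -0.02 and 0.05 in sac3∆, R288D and cdk8∆ and did not pass as deposited. SRX1, the sulfiredoxin that repairs overoxidised peroxiredoxins, averaged 30.1 ± 2.59 RPKM in cdk8∆ cells and 17.2 ± 3.57 RPKM in wild type cells (SD, n = 3 each), a rise of 0.79 ± 0.14 (limma adjusted p = 4.69e-04). In sac3∆ and R288D SRX1 changed by -0.46 ± 0.14 and -0.49 ± 0.14 (limma adjusted p = 0.0175 and 0.0134), which did not pass with library scaling removed or without wild type replicate 3 (-0.30 in sac3∆, -0.33 in R288D), nor in sac3∆ without sac3∆ replicate 3 (-0.33). CCS1, the copper chaperone of Sod1, fell by 0.33 ± 0.06 in sac3∆ and by 0.28 ± 0.06 in R288D (limma adjusted p = 7.26e-04 and 0.00209). It stood at 0.01 in cdk8∆, where SOD1 fell most.

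CTA1, the peroxisomal catalase, rose by 2.48 ± 0.17 in cdk8∆ (limma adjusted p = 1.83e-07): its level was 37.5 ± 2.54 RPKM with CDK8 deleted, against 5.91 ± 0.322 RPKM in wild type (SD, n = 3 each). CTT1, the cytosolic catalase and a general stress gene, fell by 1.42 ± 0.12 in cdk8∆ (limma adjusted p = 9.21e-07) and rose by 0.62 ± 0.12 in sac3∆ (limma adjusted p = 9.46e-04). In R288D CTT1 stood at 0.38 ± 0.12 (limma adjusted p = 0.0169), a call lost when only R288D and wild type were fitted and without wild type replicate 3 (0.35). ZWF1, the entry enzyme of the NADPH-producing pentose phosphate pathway, fell by 1.45 ± 0.06 in cdk8∆ (limma adjusted p = 2.91e-09): its level was 110.9 ± 1.62 RPKM with CDK8 deleted, against 304.4 ± 3.20 RPKM in wild type (SD, n = 3 each). MXR1, a methionine sulfoxide reductase, fell by 0.72 ± 0.06 in sac3∆ (limma adjusted p = 1.65e-06) and by 0.94 ± 0.06 with the R288D variant (limma adjusted p = 2.22e-07), whereas it rose by 0.51 ± 0.06 in cdk8∆ (limma adjusted p = 1.17e-05).

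Export pumps and further pentose phosphate genes completed the named set. ATR1, a multidrug pump induced by Yap1, rose by 0.44 ± 0.07 in sac3∆, 0.49 ± 0.07 in R288D and 0.80 ± 0.07 in cdk8∆ (limma adjusted p = 2.52e-04, 1.22e-04 and 1.46e-06), and FLR1, another such pump, rose by 0.44 ± 0.07, 0.44 ± 0.07 and 0.59 ± 0.07 (limma adjusted p = 1.56e-04, 1.89e-04 and 1.10e-05). TKL1, transketolase, fell by 0.52 ± 0.08 in sac3∆, and SOL3, a lactonase of that pathway, by 0.51 ± 0.06 (limma adjusted p = 1.23e-04 and 2.15e-05). Their levels were not low in sac3∆ alone. TKL1 averaged 634 RPKM in sac3∆, 691 in R288D and 630 in cdk8∆, against 911 in wild type. SOL3 averaged 113, 128 and 112 RPKM in the same order, against 161 in wild type. After quantile normalization TKL1 in cdk8∆ stood at 0.15. OYE3, an NADPH oxidoreductase at 5.10 to 9.22 RPKM in R288D, stood at 0.55 ± 0.18 in R288D and 0.46 ± 0.18 in cdk8∆ (limma adjusted p = 0.0211 and 0.0389), and the calls were lost on leaving out R288D replicate 2 (0.39), R288D replicate 3 (0.51) or wild type replicate 2 (0.41) in R288D, and on leaving out any cdk8∆ replicate (0.44 to 0.48) or wild type replicate 2 (0.32) or 3 (0.51) in cdk8∆.

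**Figure D5:**
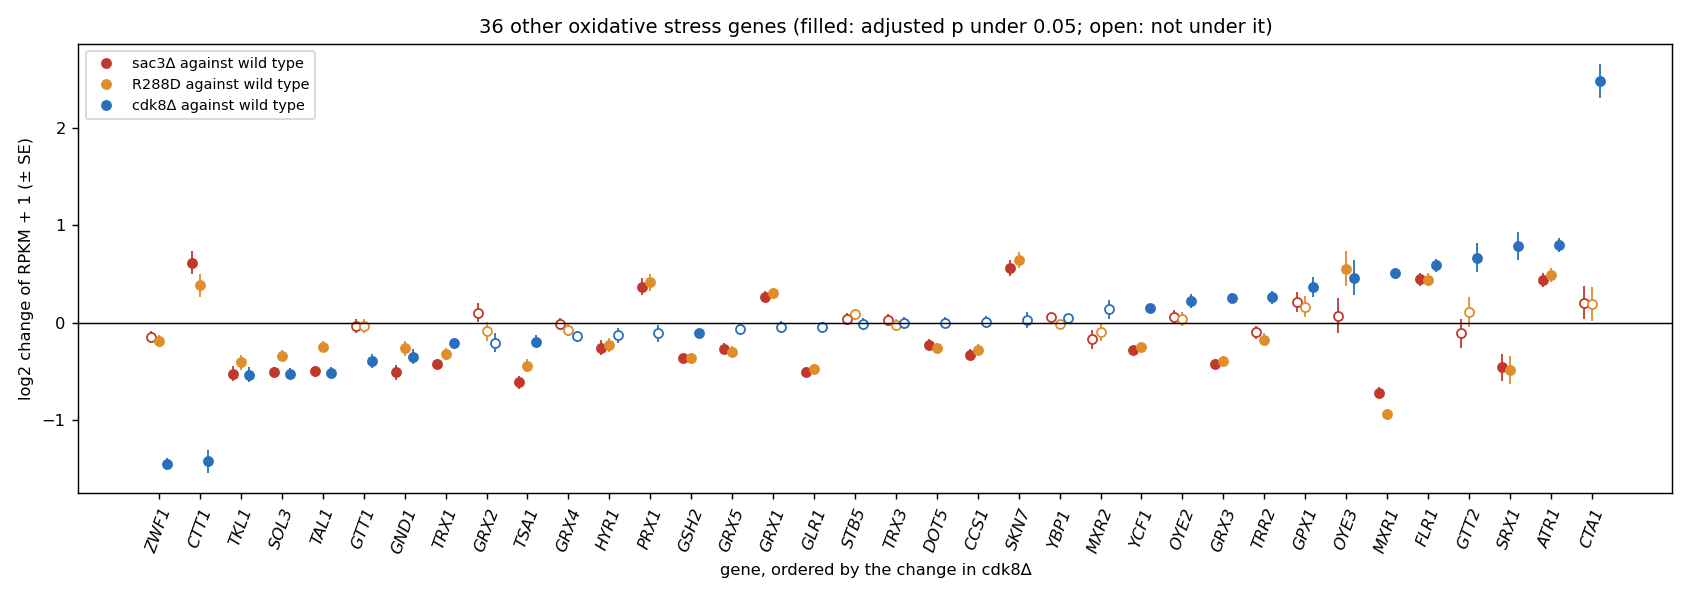
Log2 change of RPKM + 1 (vertical axis, ± SE) of the 36 other genes (horizontal axis, ordered by the change in cdk8∆) in sac3∆, R288D and cdk8∆ against wild type; filled points passed at an adjusted p of 0.05. CTA1 is highest at 2.48 and ZWF1 and CTT1 lowest at -1.45 and -1.42, all in cdk8∆.

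The genes whose levels over the 12 samples ran most like the 3 members with the widest spread between groups were found by the root mean square difference of mean-centred log2(RPKM + 1). For AHP1, whose group means spanned 1.94 on that scale, they were URA1 (0.14), of pyrimidine synthesis, the inducible chaperone gene SSA4 (0.15) and BMH1 (0.16). URA1 averaged 1199 RPKM in sac3∆, 1291 in R288D and 435 in cdk8∆, against 1443 in wild type. For SOD1, with a span of 1.23, they were the glycolytic gene TPI1 (0.10), the chaperone gene SSA1 (0.10) and PSA1 (0.11), which acts in mannose metabolism. For YAP1, with a span of 1.04, they were the kinase gene YAK1 (0.06), the bromodomain gene BDF1 (0.07) and ORM2 (0.07), which regulates sphingolipid synthesis. YAK1 averaged 296 RPKM in sac3∆, 274 in R288D and 149 in cdk8∆, against 229 in wild type.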

How the data were processed

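RNA from 12 samples (hot phenol extraction, DNase, rRNA depletion, per the labels' protocols) was sequenced, and the authors deposited RPKM per feature. TopHat2 2.0.9, HTSeq 0.5.4p3, R 3.0.1, edgeR and limma are named, without roles, per the submitters' processing notes, with the build R64. The sources used here do not give strand use or whether replicates were separate cultures. The p-values weigh group differences against the spread between these samples, taken over all 4 groups. They may not cover the spread between separate cultures.

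Of 7126 features, 6124 with a mean RPKM of at least 1 were tested. log2(RPKM + 1) was fitted by group over all 12 samples with limma 3.58.1 (R 4.3.3, mean trend), with Benjamini-Hochberg adjustment over all 6124 and a threshold of 0.05; the pseudocount of 1 understates changes of low genes. The script was tested on simulated data. Depth was recovered from the RPKM steps and exon lengths: 99.34 to 99.67% of values under 300 reads came within 0.1 of a whole read. The 964 features not matched to the reference annotation were left out of the recovered reads. No count model was run, since the values are RPKM. Alternatives were pseudocounts, filters, scalings, the fitted groups, the trend, a replicate block and each sample left out. Promoters came from the RefSeq R64 genome with Biopython 1.88. Beyond the 10 genes, the text names 12 genes close to them. With those 12 set aside, it names the 4 largest called changes in the 36-gene list in each comparison with wild type. It also names the 3 protein-coding genes with a standard name most alike to each of AHP1, SOD1 and YAP1. The members and lists were chosen with earlier results of these data known.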

Additional observations from a re-analysis of the deposited data

How the results depend on the processing

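Settings that left scaling alone changed few calls on the 10 genes. A pseudocount of 0.1 or 5, testing without a filter, filtering at a mean RPKM of 10, no mean trend and the replicate block changed none of their 60 calls. Scaling mattered more. After quantile normalization TRX2 stood at 0.055 in sac3∆, 0.11 in R288D and 0.45 in cdk8∆ against wild type, SOD1 at 0.0055 in sac3∆ and 0.24 in R288D, and TRR1 at 0.20 in cdk8∆, all of opposite sign. So did TSA1 at 0.11 in R288D and, in cdk8∆, TSA1 at 0.52, TRX1 at 0.40, HYR1 at 0.27, GLR1 at 0.23, GSH2 at 0.022, TKL1 at 0.15 and OYE3 at -0.00487. With the authors' library scaling removed, an alternative chosen after seeing the data, signs turned in cdk8∆ for TRX2 (0.12), TRR1 (0.053), TSA2 (0.37), TSA1 (0.19), TRX1 (0.17), HYR1 (0.25), GLR1 (0.34) and GSH2 (0.28), and in R288D for YBP1 (0.13). Both lists hold only changes that passed as deposited or under the alternative scaling. Signs also turned for SOD2, which passed in neither, at 0.077 in sac3∆ and 0.12 in R288D after quantile normalization. With library scaling removed SOD2 stood at 0.063 and 0.10 there. TSA2 in cdk8∆ stood at 0.25 after quantile normalization and did not pass. The causes were not tested.

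Removing the scaling gave 2809 features higher and 844 lower in sac3∆, 2580 and 824 in R288D and 4074 and 678 in cdk8∆ against wild type, beside 1681 and 1475, 1611 and 1497, and 1926 and 1876 as deposited. Against cdk8∆ it gave 1173 and 3127 for sac3∆, and 1102 and 3175 for R288D, beside 2015 and 1909, and 1978 and 1925.

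Between R288D and sac3∆, 64 features were higher and 20 lower. These became 13 and 4 with only those groups fitted, 42 and 11 without sac3∆ replicate 1, and 230 and 238 without R288D replicate 2. Leaving out single samples gave 0 to 1 of the 10 genes called there. With the replicate block 9, 9 and 9 of the 10 genes passed against wild type, 0 between R288D and sac3∆ and 8 and 8 against cdk8∆, as without it. Same-numbered samples correlated at -0.479 to 0.242 in their deviations, over 0.1 in 4 of 18 pairs. Their own number was the best match for 3 samples. Differently numbered samples of different groups correlated at -0.278 to 0.463. No pairing by number was seen, and a batch shared in another way cannot be told from these values. Depth limits little here: the counting error of the 10 genes was at most 4.23%.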
